A study of Mus musculus with 6 samples.

Results

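Csf1r, Cd68, Tyrobp, Fcer1g, Ptprc, Cd14, Ctss, Laptm5, C1qa and C1qb are genes of macrophages and their relatives, and they were followed here in mouse embryonic fibroblasts as a check of what cells the cultures held. They were taken by gene name from the non-control spots of the arrays, which gave 16 probes for the 10 genes, of 41174 probes and 29742 gene names in all. Embryonic fibroblasts are grown from minced embryos. Such primary cultures can carry along resident macrophages, which already populate the embryo at this stage.

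Macrophages depend on the CSF1 receptor, encoded by Csf1r, for survival, and on the transcription factor PU.1 for their identity. They signal through small membrane adaptors (Tyrobp, Fcer1g), sense bacterial lipid through Cd14 and Tlr4, digest what they engulf with lysosomal proteins (Cd68, Ctss, Laptm5) and are a main source of C1q, the recognition part of the first complement component. Ptprc encodes CD45, the phosphatase found on nearly all nucleated blood cells, while fibroblasts are marked by collagens, decorin and PDGF receptors.

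The data are 6 arrays. These 2-colour Agilent Whole Mouse Genome arrays were hybridised with RNA of wild type cells or of WrnΔhel/Δhel cells, labelled WS, which lack part of the helicase domain of the Werner syndrome protein. The cells came from embryos of day 15, and the mutant mice had a mixed 129/Sv/Black Swiss background. Treated cells received 0.5 mM H2O2 for 1 h and were harvested 24 h later. Arrays of replicates 1 and 2 paired treated (Cy5) with untreated (Cy3) cells of 1 genotype, with 2 arrays for wild type and 2 for mutant cells, and replicates 3 and 4 paired untreated mutant with untreated wild type cells. The labels call replicates biological, and no dyes were swapped between replicates. The label text and the study's own table contradict each other on which genotype carried which dye on replicates 3 and 4. Values are given as Cy5 over Cy3, read as mutant over wild type as in the study's table, and every sign of this comparison turns if the labels are right. Among the 7887 probes called in this comparison that also had a value within Cy3 of the treatment arrays, where the genotypes are not in dispute, 91.7% differed in the same direction there and the values correlated with r = 0.866 across probes, which are not independent replicates.

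The arrays differed in quality. The extraction software marked 22.6% of the spots of wild type replicate 2 as outliers, against 0.4% to 8.81% on the other arrays. The same array was the highest of the 6 in both dyes for 18.7% of all gene names, against 2.31% to 12.3% for each of the others. Marked spots were left out of the tests, and they included C1qa and C1qb on wild type replicate 2 and the counted Csf1r probe on mutant replicate 2. The levels below show all spots.

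The macrophage genes were dim. Background was read from 292 to 312 negative control spots per array, and a gene was counted as above it where its signal passed their 95th percentile. Of the 10 genes, each counted by its brightest probe, 3 were above the negative controls in all 12 channels (Csf1r, Fcer1g and C1qb). Only Csf1r was well above background by the extraction software's flag in all 12 channels, that is 1 of 10, against 41.2% of all gene names and 13 of 15 fibroblast genes. In Cy3, 8 to 10 of the genes passed the negative controls on each array, and in Cy5 only 4 on mutant replicate 2 and up to 10 on replicate 3. No spot of the 10 genes was saturated. The number of arrays and the distance from background, not read depth, set the precision here.

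**Figure D1:**
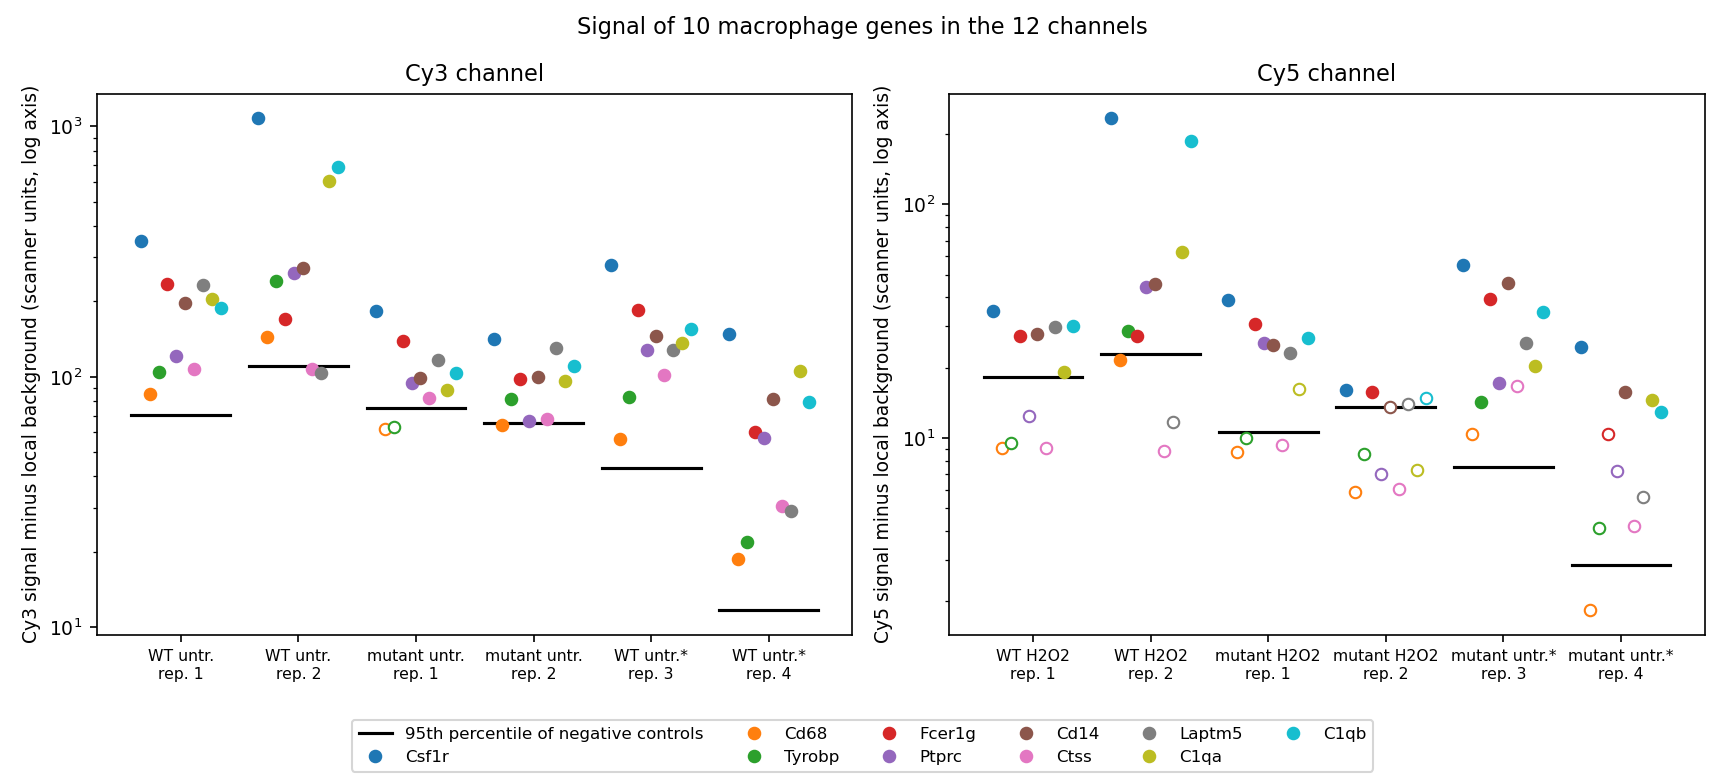
Signal minus local background on a log axis for the 10 macrophage genes (coloured points, 1 probe per gene) in the Cy3 and Cy5 channels of the 6 arrays, with the 95th percentile of the negative control spots of each channel as a black line. Filled points were well above background by the extraction software's flag and open points were not, WT is wild type, untr. is untreated, and an asterisk marks the arrays whose genotypes follow the study's table. Most points lie within a few multiples of the line, and in scanner units Csf1r, C1qa and C1qb stand highest on wild type replicate 2.

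Signals are given for the arrays in the order wild type replicates 1 and 2, mutant replicates 1 and 2, and then replicates 3 and 4, in scanner units after subtraction of the local background. They depend on each array's scan, so each is to be read against its own negative controls, whose 95th percentiles were 70.5, 110, 74.8, 65.5, 43.3 and 11.7 in Cy3. In Cy5 these were 18.3, 22.9, 10.6, 13.5, 7.48 and 2.85.

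Among the surface receptors, Csf1r, the receptor for CSF1, had the clearest signal. Its counted probe read 350, 1080, 183, 141, 281 and 148 in Cy3. The Cy5 signals were 35, 234, 39, 16, 54.8 and 24.6. The normalized log2 level was highest on wild type replicate 2 in both dyes, at 7.75 in Cy3 and 7.89 in Cy5, while as a multiple of the negative controls the signal was highest in Cy3 of replicate 4, at 12.6. The other Csf1r probes disagreed. One of them (A_52_P602091) read 905 in Cy3 and 437 in Cy5 on wild type replicate 2 but no more than 92.9 and 11.2 elsewhere. The other (A_51_P365885) read 214, 150, 182, 143, 156 and 55.2 in Cy3. By normalized log2 level wild type replicate 2 was the lowest array for that probe, at 4.93 in Cy3 and 5.07 in Cy5. The probe with the extreme value was marked as an outlier on wild type replicate 2.

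Cd14, the lipopolysaccharide co-receptor, read 197, 271, 98.8, 100, 146 and 81.6 in Cy3. In Cy5 it read 27.8, 45.5, 24.9, 13.5, 46.1 and 15.7, above the negative controls in 11 of 12 channels. Its normalized level varied least of the 10 genes between arrays, by 0.32 on the log2 scale in Cy3 and 0.66 in Cy5. The brightest Ptprc probe, for CD45, read 121, 261, 94.2, 66.5, 128 and 57 in Cy3, and it passed the negative controls in Cy5 on 4 of 6 arrays. The other 2 Ptprc probes passed them in 0 and 1 of 12 channels.

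The adaptors behaved differently from each other. Tyrobp, which carries the signal of TREM receptors, read 105, 242, 63.1, 81.3, 83.3 and 21.9 in Cy3, highest on wild type replicate 2 and below the negative controls on mutant replicate 1. In Cy5 it passed the negative controls on 3 of 6 arrays. Fcer1g, the common gamma chain of Fc receptors, which mast cells also use, read 235, 171, 139, 98.4, 185 and 60 in Cy3 and passed them in all 12 channels. By normalized log2 level wild type replicate 2 was its lowest array, at 5.11 in Cy3 and 5.3 in Cy5. A second probe with the name Fcer1g, designed from an expressed sequence tag, passed the negative controls in none of the 12 channels.

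The lysosomal genes were at or near background. Cd68, a sialomucin of macrophage lysosomes, read 85.6, 144, 62.1, 64, 56.4 and 18.8 in Cy3, and in Cy5 it passed the negative controls only on replicate 3. Ctss, a cathepsin of antigen-presenting cells, read 107, 107, 82.5, 68.1, 102 and 30.6 in Cy3 and was well above background in Cy5 on none of the arrays. Laptm5, a lysosomal membrane protein of blood cells, read 233, 104, 117, 130, 128 and 29 in Cy3, lowest against its negative controls on wild type replicate 2. By normalized log2 level, wild type replicate 2 was the highest array for Cd68, at 4.86 in Cy3 and 5.02 in Cy5, and the lowest for Laptm5, at 4.31 in both. Cd68 was itself below the negative controls in Cy5 there.

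By normalized level the genes for the C1q chains shared their highest array. As a multiple of the negative controls, C1qa was highest in Cy3 of replicate 4, at 9.06, and C1qb in Cy5 of wild type replicate 2, at 8.12. C1qa read 205, 606, 88.8, 96.5, 136 and 106 in Cy3 and 19.1, 62.7, 16.2, 7.26, 20.4 and 14.5 in Cy5. C1qb read 188, 692, 104, 111, 155 and 79.3 in Cy3 and 30.2, 186, 26.8, 14.8, 34.5 and 12.9 in Cy5. Both had their highest normalized level on wild type replicate 2, where their spots were marked as outliers, and over the other 5 arrays their levels did not follow the same order. On the RefSeq gene table of assembly GRCm38.p6 they flank C1qc on chromosome 4, and C1qc itself was well above background in 3 of 12 channels.

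The first comparison asked whether the macrophage genes responded to H2O2 in wild type cells. None of the 10 passed an adjusted p of 0.05 (limma, Benjamini-Hochberg over all probes), against 0.258% of the 40303 probes tested, and at an unadjusted p of 0.05 the count was also 0, against 20% of all probes. Fitted log2 differences of treated over untreated cells ran from -0.31 for C1qa to 0.44 for C1qb, each of which rested on replicate 1 alone because the spot of replicate 2 was marked. The median was 0.04, beside -0.01 for all probes. Csf1r gave -0.34 and 0.14 on the 2 arrays and Cd14 gave 0.25 and 0.11. Ctss gave -0.24 and -0.32, the smallest adjusted p of the list at 0.376 (limma), but its treated side was not well above background on either array, so these ratios are not a measured fold and give no bound above 1. The 95% intervals of the 10 genes together reached from -1.06 to 1.12, so a change of about 2-fold was not detectable for the least certain of them.

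In mutant cells the picture was the same in kind. None of the 10 genes was called, and of all 41052 probes tested 0% were called by limma either, while 12% passed an unadjusted p of 0.05 and none of the 10 did. Values ran from -0.43 for Csf1r, from replicate 1 alone, to 0.23 for Ptprc, with a median of 0.09 beside 0.01 for all probes. Only 6 of the 10 genes were well above background on both sides in at least 1 array. Cd68, Tyrobp, Ctss and C1qa were not well above background in treated mutant cells on either array. The difference between the responses, mutant minus wild type, was called for none of the 10 genes and for 0% of 40267 probes (limma), with values from -0.33 to 0.39 and 95% intervals that together spanned -1.16 to 1.01.

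The comparison of untreated mutant with wild type cells asked whether the genotypes carried different amounts of macrophage RNA. In bulk RNA, fewer macrophages and less RNA per macrophage cannot be told apart. This comparison had many calls, 8061 of 41099 probes or 19.6% (limma), and yet 0 of the 10 genes. Cd14 was nearest, with log2 ratios of 0.97 on replicate 3 and 0.16 on replicate 4 and a fitted value of 0.57 ± 0.22 (SE, n = 2, limma adjusted p = 0.11). Without replicate 4 its value of 0.97 had a limma adjusted p of 0.00328, with the spread taken from the other groups, and without replicate 3 its value was 0.16 (limma adjusted p = 0.512). Laptm5 gave 0.33 and 0.3, the closest pair of the list, fitted at 0.31 ± 0.15 (SE, n = 2, limma adjusted p = 0.182).

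The remaining genes lay closer to 0 or had arrays on both sides of it. Csf1r gave 0.22 and -0.07, Tyrobp 0.15 and 0.31, Fcer1g 0.39 and 0.06, and C1qb 0.47 and -0.07. C1qa gave -0.08 and -0.33 and Ptprc -0.24 and -0.37. Cd68 and Ctss were not well above background in Cy5 on either array. The median was 0.14, beside 0 for all probes, with 6 genes above 0 and 4 below, and the 95% intervals together spanned -0.74 to 1.08. One uncounted probe, A_52_P677117 for Ptprc, passed at -0.89 (limma adjusted p = 0.0427), but it had a value on replicate 3 alone and was well above background there in neither dye.

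**Figure D2:**
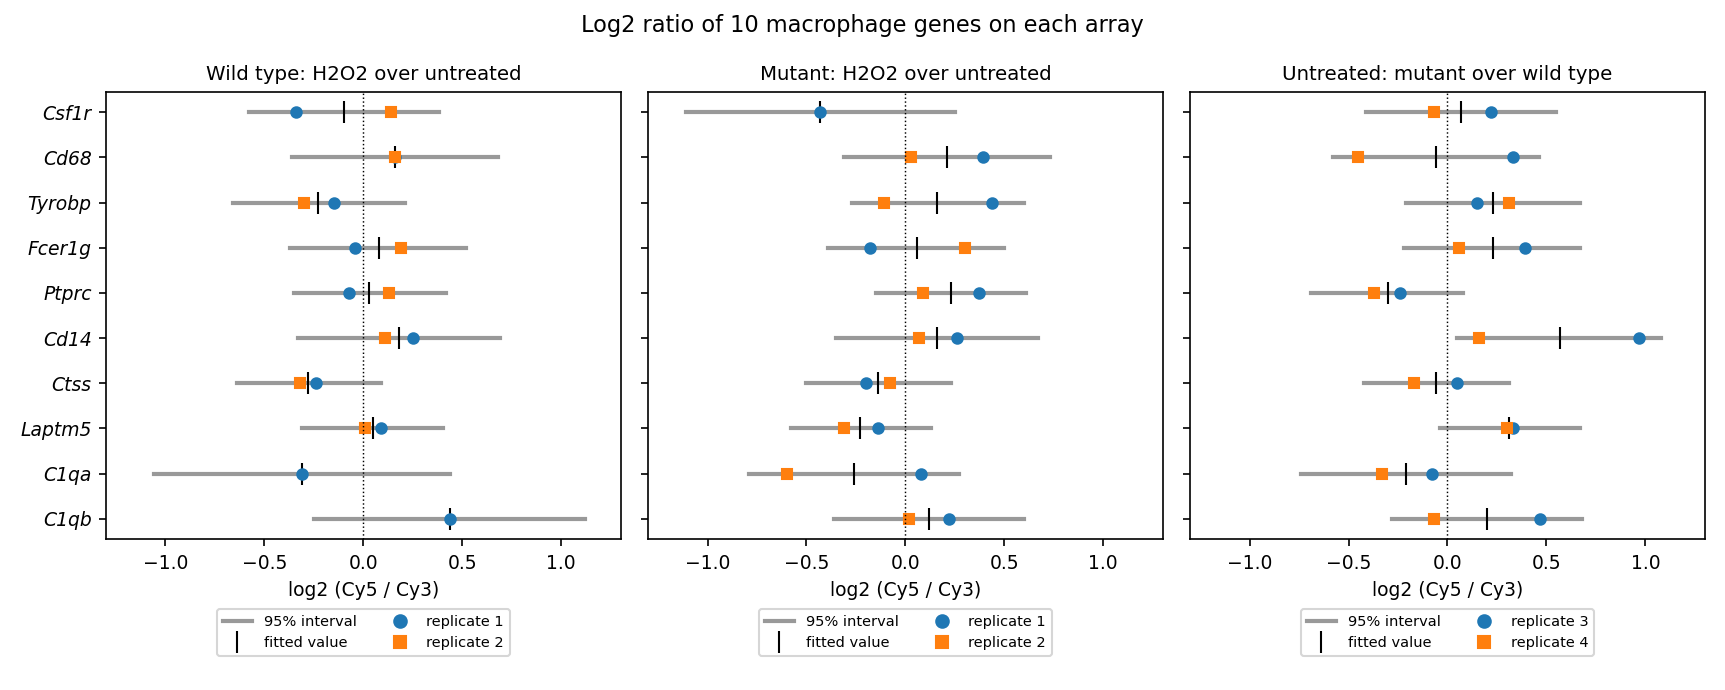
Log2 ratio of Cy5 over Cy3 for each of the 10 macrophage genes in the 3 comparisons, with circles and squares for single arrays, a black bar for the fitted value and a grey line for its 95% interval from limma. A gene with 1 point had its other spot marked as an outlier, the right panel follows the study's table for which dye holds the mutant, and only Cd14 in that panel has an interval that leaves out 0.

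The genotypes were also compared within 1 dye over the 4 treatment arrays, where slides are not shared. In untreated cells (Cy3), 0 of the 10 genes were called, against 1.49% of probes, and in treated cells (Cy5) 0 of 10, against 1.65% (limma). Medians of mutant minus wild type log2 level were -0.13 and -0.06, beside 0.07 and 0.08 for all probes. Laptm5 had the largest values, 0.94 in Cy3 (limma adjusted p = 0.371) and 0.67 in Cy5 (limma adjusted p = 0.649). Without wild type replicate 1 it was called, at 1.85 in Cy3 and 1.62 in Cy5 (limma adjusted p = 0.00319 and 0.0143). The wild type side was then the single array with the lowest Laptm5 level, and it was assumed to vary like the mutant arrays. The Csf1r probes went opposite ways. A_51_P365885, well above background on all 4 arrays in both dyes, stood at 1.36 in Cy3 (limma adjusted p = 0.103) and 0.99 in Cy5 (limma adjusted p = 0.351), higher in mutant cells, and the counted probe at -0.22 and -0.55. The Csf1r probe A_52_P602091 was not well above background in the mutant arrays. With its marked spot included, it was at least 4.83-fold higher in untreated wild type cells over both arrays. Without wild type replicate 2 this bound was 1.62-fold. With only the marked spot left out, the fitted value was -0.69, from 1 wild type array. In treated cells the bound was 2.08-fold over both arrays and under 1 without wild type replicate 2. For C1qa in treated cells the bound towards wild type was 1.24-fold, with its marked spot included, or 1.02-fold without that array. With the marked spot left out, the fitted value of C1qa was -0.49, from 1 wild type array. The bound for C1qa thus does not establish a difference.

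The levels of the 10 genes varied more between arrays than between the dyes of an array, as did those of all gene names. The span of the normalized log2 level over the 6 arrays had a median of 1.27 in Cy3 and 1.27 in Cy5, and 9 of 10 genes had a span in each dye that was larger than their largest log2 ratio on any array. The exception was Cd14. Over all gene names the median spans were 1.09 and 1.26, so spans of this size were not particular to the macrophage genes. The median of the largest ratio was 0.71 over all gene names and 0.43 over the 10 genes. A span over 6 arrays and a ratio within 1 array are unlike measures.

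Of the 10 genes 5 (Csf1r, Cd68, Tyrobp, C1qa and C1qb), that is 50% of the list, were highest on wild type replicate 2 in both dyes, where the share over all gene names was 18.7%. Fcer1g, Ctss and Laptm5 were lowest there in both dyes. They lay at -0.84, -0.5 and -1.39 against the mean of the other arrays in Cy3, and at -0.76, -0.7 and -1.44 in Cy5. Csf1r is counted by its brightest probe, while its probe A_51_P365885 was lowest on that array. The summed normalized level of the 10 genes was 726 in Cy3 and 760 in Cy5 on that array. On the other 5 arrays it lay between 452 and 556 in Cy3 and between 431 and 560 in Cy5, so the treatments and genotypes overlapped throughout. Without Csf1r the sums on wild type replicate 2 were 511 and 523, against 348 to 456 elsewhere. These sums still held the marked C1qa and C1qb spots of that array. Their log2 levels there were 6.88 and 7.09 in Cy3 and 6.13 and 7.58 in Cy5. The excess in the sums is thus not shown to be shared by the rest of the list.

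Some genes of other cell types had their highest level on the same array too, where the share over all gene names was 18.7%. This was so for 5 of 11 mast cell genes, 5 of 14 lymphocyte genes, 3 of 9 erythroid genes, 3 of 9 endothelial genes, 4 of 7 epithelial genes, 2 of 11 neutrophil genes and 1 of 4 platelet genes. Of 38 other macrophage genes with a level in every channel 9 were highest there, and of 15 fibroblast genes 0. The shares of the neutrophil, platelet and other macrophage genes, at 18.2%, 25% and 23.7%, were near that over all gene names. The part that the quality of this array or a different mix of cells had in these values was not tested.

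**Figure D3:**
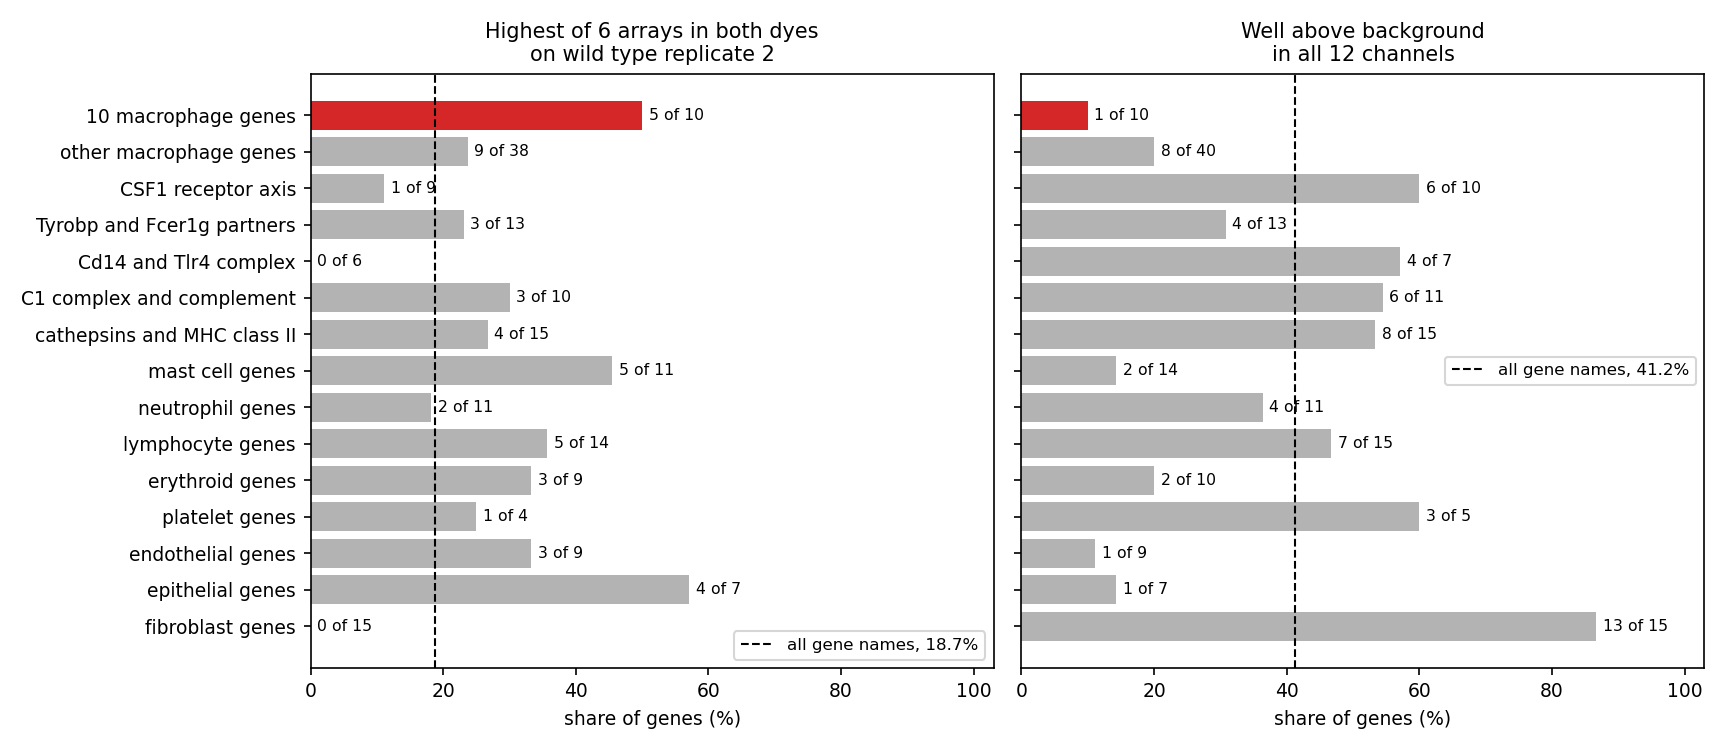
Left, share of each gene list (bars, in percent, 1 probe per gene) that had its highest normalized level of 6 arrays on wild type replicate 2 in both dyes, and right, share well above background in all 12 channels, with the share over all gene names as a dashed line. The 10 macrophage genes stand at 5 of 10 on the left and 1 of 10 on the right, while the fibroblast genes stand at 0 of 15 and 13 of 15.

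Of the 40 other macrophage genes measured, 8 were well above background in all 12 channels, among them Aif1, Itgam, Fcgr1 and Trem2. Other genes used to define macrophages passed that flag in fewer channels, with Adgre1 (F4/80) in 7, Lyz2 (lysozyme) in 6, Cd53 in 7, Cx3cr1 in 4, Cd163 in 3 and Spi1, the gene for PU.1, in 1. Between untreated mutant and wild type cells 3 of the 40 were higher and 5 lower (limma, adjusted p under 0.05), where 19.6% of all probes were called. Ncf4, a subunit of the phagocyte oxidase, gave log2 ratios of 2.05 and 3.08, and Mrc1, the mannose receptor, 1.25 and 1.9, though Mrc1 was well above background in only 3 of 12 channels. Cd48, an adhesion protein of blood cells, gave -2.28 and -3.24, but its Cy5 signal on replicate 4 was 0.84, below the negative controls. These sizes depended on how background was corrected. With the normexp correction in place of plain subtraction Ncf4 stood at 0.98 and kept its call, while Mrc1 at 0.3 and Cd48 at -0.69 lost theirs (limma adjusted p = 0.0589 and 0.0623). The other called genes of this list were Siglec1 at 0.99 and, lower in mutant cells, Trem2 at -1.66, Slc11a1 at -0.89, Ncf1 at -0.89 and Irf8 at -0.63. The list thus did not move in 1 direction, and its median was -0.01. Within Cy3 of the treatment arrays only Ncf4 of the 40 was called. There Siglec1 stood at 0.1, Trem2 at -0.67, Slc11a1 at -0.54, Ncf1 at -0.95 and Irf8, with the other sign, at 0.34. Cy5 over Cy3 of Trem2 was also negative in both treatment comparisons, at -2.13 in wild type and -1.28 in mutant cells. The same was so for Cd48, at -1.32 and -0.6. A dye effect on these genes was not tested, since no dyes were swapped.

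The partners of the 10 genes were read in the same comparison, where 19.6% of all probes were called. Csf1, the ligand of the CSF1 receptor, which fibroblasts secrete, was lower in mutant cells, with log2 ratios of -1.88 and -1.73 (fitted -1.81 ± 0.19, SE, n = 2, limma adjusted p = 0.0024) and with -1.44 within Cy3 (limma adjusted p = 0.0487). Of the 9 genes of the CSF1 receptor axis tested 2 were lower (Csf1 and, shared with the list above, Irf8) and 2 higher (Csf2ra at 1.03, or 0.39 with normexp, and Cebpa at 0.87). Csf1r itself stood at 0.07. Within Cy3 only Csf1 of the axis was called, with Csf2ra at 0.57, Cebpa at 0.95 and Irf8 at 0.34. On the same gene table Csf1r lies next to Pdgfrb, its close relative and a fibroblast receptor, which was higher in mutant cells at 1.23, with arrays at 1.45 and 1.

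Among the complement genes, the proteases that complete the C1 complex, C1s1 and C1ra, were higher in mutant cells at 2.48 and 1.52, and C3 at 1.05. This made 3 of 11 complement genes called higher and 0 called lower, beside 19.6% of all probes called, while C1qa and C1qb were not called. The list did not move in 1 direction, with a median of 0.02. C4b at -0.9, Cfp at -0.86, C3ar1 at -0.66 and C2 at -0.44 were lower without a call. For C1s1 the arrays gave 2.07 and 2.89, and within Cy3 the value was 2.05 (limma adjusted p = 0.00283). C1ra and C3 were not called within Cy3, at 1.25 and 0.21 (limma adjusted p = 0.139 and 0.858). Of the 7 genes of the Cd14 and Tlr4 group 3 were higher between genotypes and 0 lower. They were Tlr4 at 1.28, or 0.79 with normexp, Ly96 at 0.71 and Myd88 at 0.65. Cd14, at 0.57, was not called. Within Cy3 none of the group was called, with Tlr4 at 1.07, Ly96 at 0.89 and Myd88 at 0.69.

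Among 13 receptors and kinases that work with Tyrobp or Fcer1g, Lyn was higher at 1.16 and Trem2 and Plcg2 lower at -1.66 and -0.79. With normexp Plcg2 stood at -0.28. Within Cy3 none of the 13 was called, with Lyn at 0.32, Trem2 at -0.67 and Plcg2 at -1.48. Trem2, a lipid receptor that needs Tyrobp, was well above background in all 12 channels, and its Cy3 signal of 4130 on wild type replicate 2 stood beside 1020 on wild type replicate 1, with the first marked as an outlier. Among 15 cathepsin and MHC class II genes 3 were higher, namely Ifi30 at 3.52 from replicate 4 alone, Ctsh at 2.32 and Ctsc at 0.65, and 0 lower. Ctsc lost its call with normexp, at 0.19 (limma adjusted p = 0.0969). Within Cy3 Ifi30 and Ctsh were also called, at 2.85 and 1.67, and Ctsc stood at 0.04 (limma adjusted p = 0.978). The shares called in both of these lists were near the 19.6% of all probes. No gene of these lists was called in either treatment comparison. Comparisons of a called with an uncalled gene are side by side values, and the difference between the genes was not tested.

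**Figure D4:**
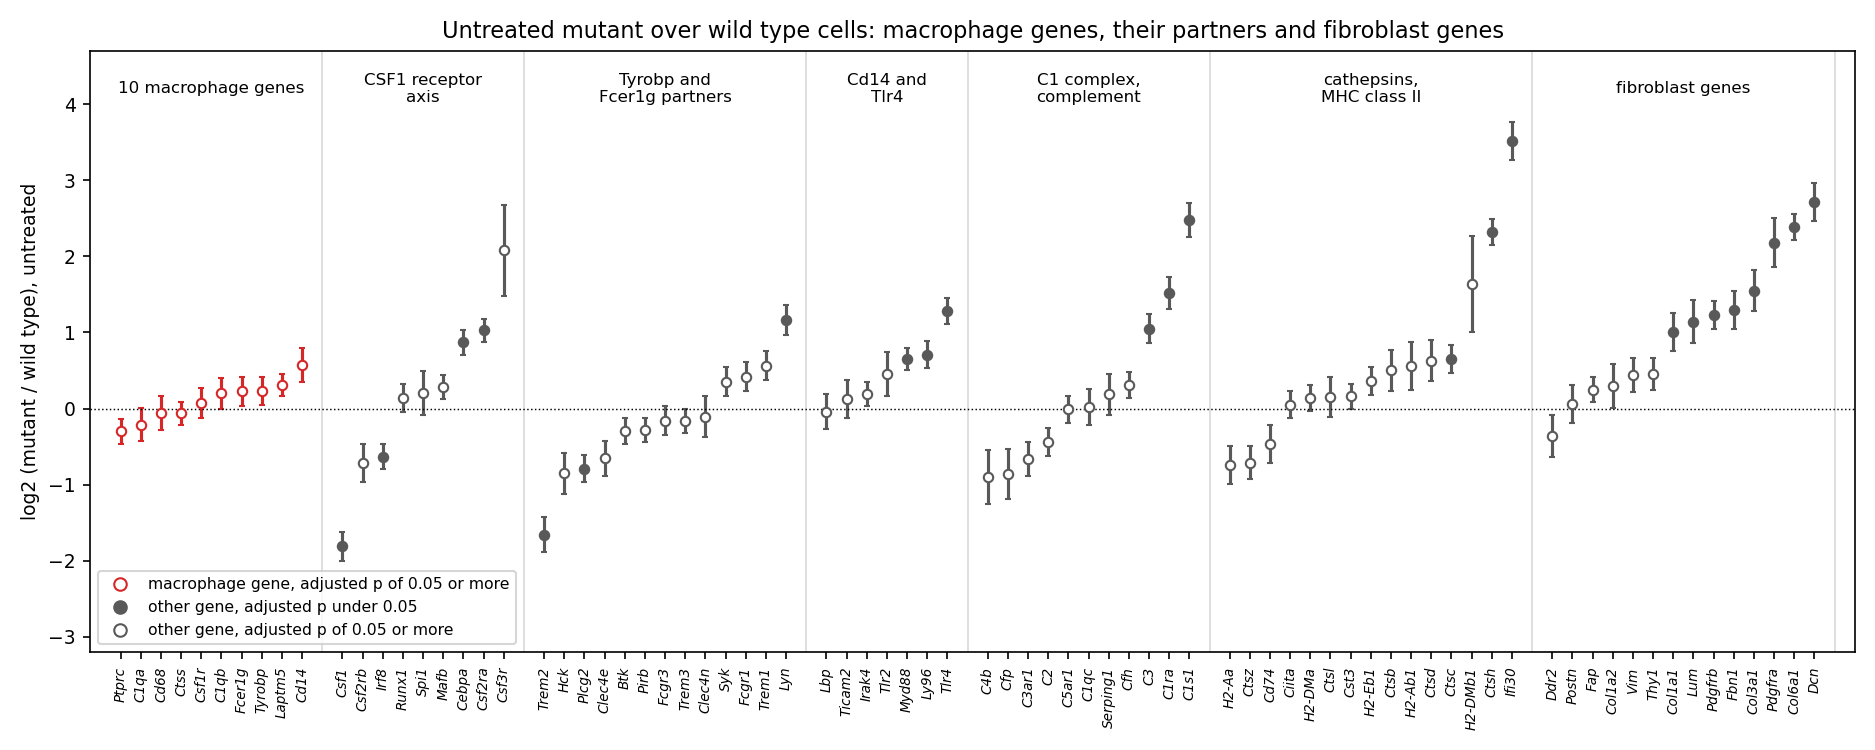
Fitted log2 ratio of untreated mutant over wild type cells with its SE (n of at most 2 arrays) for the 10 macrophage genes (red), for the genes of each partner list and for fibroblast genes (grey), filled where the limma adjusted p was under 0.05. The macrophage genes lie between -0.3 and 0.57 with open symbols, while Csf1 at -1.81 and C1s1, Ifi30 and Dcn at 2.48, 3.52 and 2.71 are filled.

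Lists for other cells were read in the same comparison. Of 14 fibroblast genes tested 8 were higher in mutant cells and 0 lower, with a median of 1.08, and Dcn (decorin) and Col6a1 stood at 2.71 and 2.38. Within Cy3 2 of 12 fibroblast genes tested were called higher and 0 lower, with a median of 0.79, where 1.49% of all probes were called. Of 14 mast cell and basophil genes 3 were lower (Mcpt8 at -4.83, Mcpt4 at -0.99 and Gata2 at -0.81) and 0 higher, a share near the 19.6% of all probes, while Fcer1g stood at 0.23. With normexp Mcpt8, Mcpt4 and Gata2 stood at -3.05, -0.38 and -0.48, all still called. Within Cy3 Mcpt8 was called at -4.19, while Mcpt4 at -1.01 and Gata2 at -0.58 were not (limma adjusted p = 0.331 and 0.553). The counts of higher and lower genes were 1 and 0 of 11 for neutrophils (Mpo) and 1 and 1 of 15 for lymphocytes (Gzma and Ncr1). They were 0 and 0 of 9 for endothelium and 0 and 2 of 7 for epithelium (Krt18 and Krt19).

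Patterns like that of the macrophage genes were sought over the 12 channels, centred within each dye. The mean centred level of the 10 genes was 0.24 and 0.2 on wild type replicate 2 and between -0.24 and 0.13 elsewhere. The genes did not share 1 pattern, since the correlation of each with the mean of the other 9 ran from -0.599 for Laptm5 to 0.756 for Cd68. Of 22007 other gene names well above background in at least 6 channels, the 10 most like the mean had Pearson correlations of 0.906 to 0.955 over 12 channels from 6 arrays. They were D130060J02Rik, AY512921, A_51_P348258, Wbscr21, Atp6v0a4, TC1036668, BF318739, Fpr-rs4, Gal3st4 and A730019I05Rik. Since the mean that chose them peaks on wild type replicate 2, their level there is fixed by the choice.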

How the data were processed

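The extraction software's output deposited by the authors gives spot intensity and local background in both dyes, quality flags, and a log10 ratio of Cy5 over Cy3. A further table deposited by the authors holds log2 ratios after background subtraction and loess. With marked spots kept, the lowest correlation of that table with the ratios computed here was 0.9994. The labels name total RNA and the study's methods cytoplasmic RNA, and the software versions in methods and headers differ. The members and the gene lists were chosen with earlier results of these data known.

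From the intensities, local background was subtracted and loess applied within each array in limma 3.58.1 (R 4.3.3). Controls and outlier-marked spots were left out, and spots of a probe were averaged. All 6 arrays were fitted together with 1 coefficient per comparison, and p-values were two-sided and adjusted over all probes by the Benjamini-Hochberg method at 0.05. Single channels were scaled by Aquantile and fitted 2 arrays against 2. A gene with several probes was counted by the one of highest mean intensity. Named were all probes of the members, at most 3 genes of each further list with the smallest p between genotypes, and the 10 genes most like the members' mean. Other genes were named where a count of 5 or fewer needed it or as defining markers, after their values were seen. Folds against a side not well above background set that side to the lowest level well above background per array. Where the probe's own reading was higher, that reading was used. These folds include marked spots and are open to dye bias. The fits were tested on simulated data. Plots used Python 3.11.15, pandas 2.3.3 and matplotlib 3.10.9. Alternatives tried are given in the closing section. The genotype counts of the erythroid and platelet lists are not reported here.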

Additional observations from a re-analysis of the deposited data

How the results depend on the processing

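The count of 0 of 10 macrophage genes called held for both H2O2 responses and their difference under every alternative, 15 for each. Between genotypes it changed in 1 alternative of each comparison. With 1 array left out it ran from 0 to 1 for untreated mutant against wild type cells (Cd14, without replicate 4), from 0 to 1 within Cy3 and from 0 to 1 within Cy5 (Laptm5, without wild type replicate 1), and it was 0 otherwise. The counts over all probes moved more, from 0 to 10115 for the wild type response (104 in the text), 0 to 4380 for the mutant response (0), 751 to 16160 between genotypes (8061), 0 to 513 for the difference (0), 116 to 4199 within Cy3 (599) and 51 to 2638 within Cy5 (666). Fitted on the comparison's own arrays alone, 10115 probes were called for the wild type response, 4380 for the mutant response, 513 for the difference and 2057 between genotypes. Of the values of single macrophage genes under the alternatives, 671 kept their sign and were not called, 56 changed sign and were not called, and 3 became called. Replicate numbers 1 and 2 as a replicate block gave 0 of 10 in each comparison, lowered the calls of the wild type response to 0 and those between genotypes to 3452, and deviations of same-numbered arrays correlated with r = -0.046, so the numbers were not taken as pairs. Extraction run could not be fitted as a block, since replicates 3 and 4 each had a run of their own and the other 4 arrays shared 1. The 24 partner and list genes kept their sign in every alternative but the labels' dyes, where all signs turn, and over all other alternatives they lost their call in 79 cases and kept it in 275. By the labels' dyes, Csf1 would stand at 1.81, Trem2 at 1.66, Plcg2 at 0.79, Cd48 at 2.76, Mcpt8 at 4.83, Mcpt4 at 0.99 and Gata2 at 0.81. Lower would then be Csf2ra at -1.03, Cebpa at -0.87, Lyn at -1.16, Tlr4 at -1.28, Myd88 at -0.65, Ly96 at -0.71, C1s1 at -2.48, C1ra at -1.52, C3 at -1.05, Ctsh at -2.32, Ifi30 at -3.52, Ctsc at -0.65, Dcn at -2.71, Col6a1 at -2.38, Pdgfrb at -1.23, Ncf4 at -2.56 and Mrc1 at -1.57. Alternatives chosen after seeing the data left 4 genes above the negative controls in every channel without wild type replicate 2 and 3 at their 99th percentile, and 4 or 5 genes highest on that array under another scaling or background correction.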
